A study of Homo sapiens with 4 samples.

Results

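Inflammatory cytokines and their receptors were examined in AGS, an established human gastric adenocarcinoma line with epithelial features. The members were chosen by gene symbol: 33 genes for ligands, for the IL-1 receptor antagonist and for receptor chains, of which 32 were measured among the 19775 genes in the table. A probe set counted for a gene where the platform annotation gave it that symbol alone, and each gene is represented by its brightest probe set, by the mean of 4 arrays. CSF2, the gene of the granulocyte-macrophage colony-stimulating factor, had no such probe set and was not analysed here. The tested cells had been kept for 8 h in medium with 10 µg/ml of lipopolysaccharide (LPS, the glycolipid of the bacterial outer membrane) from Helicobacter pylori. Untreated cells had received fresh medium for the same time. Each group held 2 arrays, numbered 1 and 2, and the design text mentions 2 independent experiments. All cells came from the same line, so the arrays do not sample different donors.

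Cytokines are secreted or membrane-bound proteins that carry inflammatory signals between cells. IL-1 family and TNF superfamily ligands act largely through NF-κB and MAP kinases. Ligands of the IL-6 family act through shared gp130 (IL6ST) complexes that switch on JAK kinases and the transcription factor STAT3. Epithelial cells of the stomach both answer such signals and, when NF-κB is active, can make some of them. The comparison asks whether purified H. pylori LPS, without live bacteria, alters the transcripts for either side of this exchange.

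None of the 32 measured genes passed the test for a difference between LPS-treated and untreated cells (limma, adjusted p = 1 for each). Over all 19775 genes the same test called 0 higher (0%) and 0 lower (0%), and at an unadjusted p under 0.05 it gave 559 genes (2.83%). The members reached an unadjusted p under 0.05 in 2 cases, TNFRSF1B on the higher side (1 gene, against 1.26% of all genes) and LIFR on the lower side (1 gene, against 1.57%). The differences of all members ran from -0.40 to 0.33 on the log2 scale, with a median of -0.009, beside a median of 0.017 over all genes. Differences lay above 0 for 15 members and below 0 for 17. The 95% interval lay within 1.5-fold of no difference on either side for 29 members and within 2-fold for 32. The 3 members with an interval past 1.5-fold were LIFR, TNFRSF1B and IL1A. Of the 29, 15 had a level at or above the median over genes and 14 lay below it. At such low levels a probe set can hold background, so a narrow interval there does not limit a change in RNA.

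Both LPS arrays lay above both untreated arrays for 4 members, IL1B, LIF, TNFRSF1B and IL22RA1, where 17.9% of all genes did so. Both lay below for 5 members, LIFR, IL18, IL1RAP, IL18R1 and TSLP, where 11.7% of all genes did so. These shares of the members are near those of all genes. For any single gene, the smallest two-sided p that exact permutation of 2 against 2 arrays allows is 0.33.

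Levels are described against a fixed line. A gene is called dim here where its mean over 4 arrays lay under the median over genes, 7.25 on the log2 scale. Receptor chains were at or above that median in 12 of 15 cases, and ligands, with the antagonist gene IL1RN counted among them, in 5 of 17. Probe sets bind with different efficiency, so the level of 1 gene cannot be set against that of another and the median is only a guide. A list of 23 genes of unrelated tissues, such as insulin (INS) and glucagon (GCG), ran from 4.34 to 8.62, with a median of 5.70. Of these, 21 were dim, and the other 2, SFTPC at 8.19 and MBP at 8.62, set the upper end. Above the highest of that list stood 11 members, 7 receptor chains and 4 ligands. The receptor chains IL4R, IL1RAP, IL17RA, IL22RA1 and TNFRSF1B and the ligand IL11 were at or above the median over genes but within the range of that list, so they are not shown to lie above background. Of the 15 dim members, 13 lay within its range, and IL33 and TSLP lay below it. RNA was taken from whole cultures, so fewer cells of a type and less RNA per cell cannot be told apart.

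**Figure D1:**
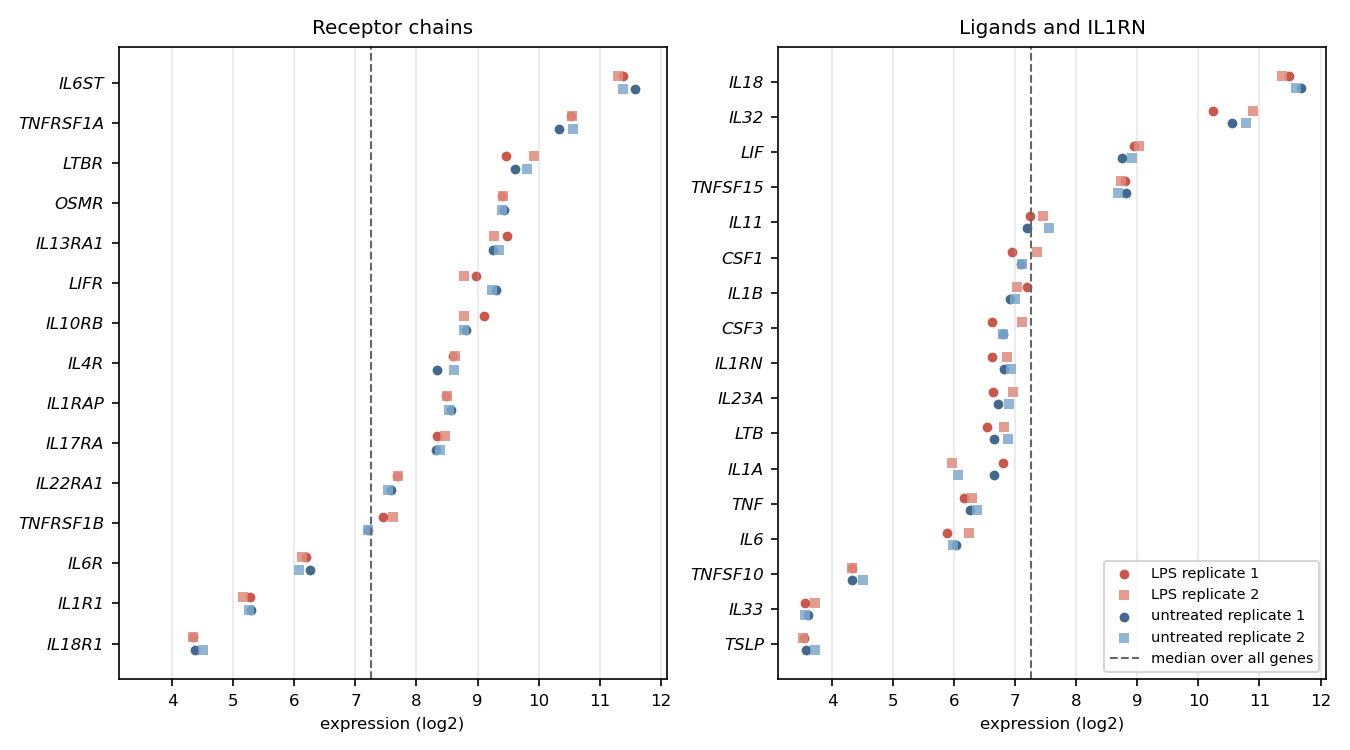
Expression (log2) of each member on each of the 4 arrays, with receptor chains at left and ligands at right, LPS arrays in red just above untreated arrays in blue. The dashed line marks the median over all genes (7.25), and 12 of 15 receptor chains but 5 of 17 ligands have a mean at or above it.

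The label of an epithelial line was set against cell markers. Of the gastric epithelial markers, 9 of 10 were measured and all 9 lay at or above the median over genes. EPCAM was at 13.52 and the keratin gene KRT18 at 14.40. The lowest was CDH1 at 8.26, which lay within the range of the list of unrelated tissues. Of the leukocyte markers, 11 of 14 were measured and all 11 were dim, with the pan-leukocyte gene PTPRC at 5.02 and CD14 at 4.88. Their mean level was 5.78 and 5.94 on the LPS arrays, against 5.88 and 5.91 on the untreated arrays. Of the fibroblast and endothelial markers, 9 of 11 were dim. The other 2, COL1A1 at 8.63 and TEK at 7.87, lay at or above the median over genes. COL1A1 stood just above the highest gene of the list of unrelated tissues, MBP at 8.62. The part of stray cells in the levels of dim cytokine genes was not tested.

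Receptors for the IL-6 family held the lowest difference among the members. LIFR encodes the chain that pairs with gp130 to receive leukaemia inhibitory factor. Its log2 level was 8.98 and 8.77 on the LPS arrays, against 9.31 and 9.23 on the untreated arrays. The LPS arrays lay below the untreated arrays without overlap. The means were 8.88 ± 0.14 and 9.27 ± 0.05 (SD, n = 2 each), and the LPS to untreated ratio was 0.76 (95% interval 0.63 to 0.92). The difference of -0.40 ± 0.12 (SE) had an unadjusted p of 0.0114 and did not pass adjustment over all genes (limma, adjusted p = 1). It was -0.33 for replicate 1 and -0.46 for replicate 2.

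The gene was measured by 5 probe sets, and they did not all give the same picture. On 205876_at LIFR had 7.34 and 7.07 with LPS, against 7.86 and 7.86 without, a difference of -0.65 ± 0.14 (SE) and an unadjusted p of 0.00254 in the fit over every probe set (limma, adjusted p = 1). On 227771_at LIFR had 7.72 and 7.44 with LPS, against 7.91 and 7.76 without, again with no overlap and a difference of -0.25. On 225571_at LIFR had 8.36 and 7.21 with LPS, against 8.52 and 7.74 without, so that the arrays of a group lay farther apart than the groups. The dimmest probe set, 229185_at, had 6.19 and 6.30 with LPS, against 6.22 and 6.16 without, a difference of 0.05. LIFR thus lay lower without overlap on 3 of its 5 probe sets, lower with overlap on 1 and slightly higher on 1.

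IL6ST encodes gp130, the signal-transducing chain shared by the IL-6 family. On its brightest probe set it had 11.38 and 11.31 with LPS, against 11.58 and 11.38 without, a difference of -0.14 ± 0.10 (SE). LPS replicate 1 and untreated replicate 2 lay side by side, so the groups were not separated. On 204863_s_at IL6ST had 8.33 and 7.30 with LPS, against 8.20 and 7.49 without, and on 211000_s_at it had 7.93 and 6.88, against 7.87 and 7.03. On these probe sets, as on 225571_at of LIFR, the arrays numbered 1 were high and those numbered 2 low, whatever the treatment. The control probe sets for 18S ribosomal RNA split the same way, at 9.89 and 7.98 on LPS arrays 1 and 2, against 10.07 and 8.12 on untreated arrays 1 and 2. The source of that difference between array numbers, and its part in these values, was not tested.

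OSMR encodes the chain that joins gp130 to receive oncostatin M. On its brightest probe set it was nearly level, at 9.40 and 9.41 with LPS, against 9.44 and 9.40 without, a difference of -0.02 ± 0.10 (SE). On 1554008_at OSMR had 9.05 and 9.02 with LPS, against 9.14 and 9.15 without, a difference of -0.11 without overlap. On 205729_at OSMR differed by -0.19 with overlap. IL6R, the chain that binds IL-6 itself, was dim, at 6.20 and 6.12 with LPS, against 6.26 and 6.08 without. Over LIFR, IL6ST, OSMR and IL6R together, 17 of 18 probe sets had a difference below 0, where 45.1% of all named probe sets did. Probe sets of the same gene share transcripts and arrays and are not replicates, and this count was looked up after the values were seen. The count includes dim probe sets, such as 234474_x_at of IL6ST at 3.70 and 205945_at of IL6R at 4.65, which can hold background. It leaves out IL11RA, the receptor chain for IL-11, which was dim and on its brightest probe set differed by 0.08 with overlap.

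**Figure D2:**
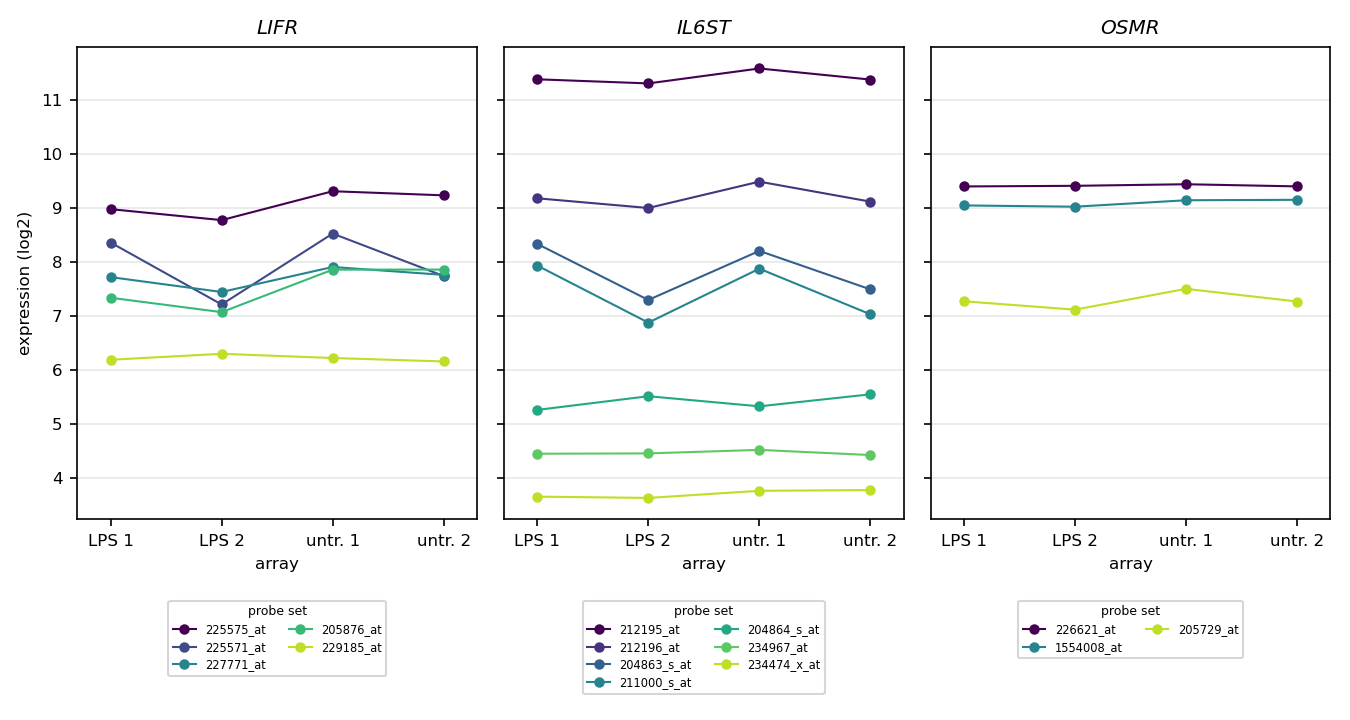
Expression (log2) of every probe set of LIFR, IL6ST and OSMR on the 4 arrays, LPS arrays at left and untreated arrays at right in each panel, with a line joining the values of 1 probe set. LIFR is lower on both LPS arrays on 3 of 5 probe sets, and 2 IL6ST probe sets (204863_s_at and 211000_s_at) follow the replicate number.

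None of the IL-6 family ligands passed the test. LIF, which binds LIFR, had 8.94 and 9.02 with LPS, against 8.74 and 8.91 without. Both LPS arrays lay above both untreated arrays by a small margin, with a ratio of 1.12 (95% interval 0.92 to 1.35). IL11, which signals through gp130 with a receptor chain of its own, had 7.25 and 7.45 with LPS, against 7.20 and 7.56 without. Its dimmer probe set, 206924_at, differed by 0.17 without overlap. IL6, the classic inflammatory cytokine of the family, was dim at 5.89 and 6.24 with LPS, against 6.03 and 5.98 without, and its difference was -0.14 for replicate 1 and 0.26 for replicate 2. A dim probe set can hold background rather than transcript, so the narrow intervals of IL6 and other dim genes do not limit a change in their RNA.

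TNFRSF1B had the highest difference among the members. It encodes TNFR2, the TNF receptor that lacks a death domain and is best known from immune cells. Its log2 level was 7.46 and 7.62 on the LPS arrays, against 7.21 and 7.20 on the untreated arrays. The groups did not overlap. The means were 7.54 ± 0.12 with LPS and 7.20 ± 0.00 without (SD, n = 2 each), and the LPS to untreated ratio was 1.26 (95% interval 1.04 to 1.53). The difference of 0.33 ± 0.12 (SE) had an unadjusted p of 0.0253 and did not pass adjustment over all genes (limma, adjusted p = 1). It was 0.25 for replicate 1 and 0.42 for replicate 2. A single probe set measured the gene, and its mean of 7.37 lay only just above the median over genes.

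None of the other TNF superfamily genes passed the test. TNFRSF1A, the death-domain receptor TNFR1 that most cells carry, had 10.52 and 10.55 with LPS, against 10.34 and 10.56 without. LTBR, the lymphotoxin beta receptor that feeds the noncanonical NF-κB pathway, had 9.46 and 9.93 with LPS, against 9.61 and 9.81 without. In LTBR the arrays of each group lay farther apart than the groups. TNFSF15, the ligand TL1A, had 8.80 and 8.72 with LPS, against 8.81 and 8.69 without. TNF itself was dim, at 6.16 and 6.30 with LPS, against 6.26 and 6.37 without, and TNFSF10, the death ligand TRAIL, was dimmer still at 4.33 and 4.33, against 4.33 and 4.51. On the brightest probe set of each of these 5 genes the groups overlapped. Other probe sets differed more: 221085_at of TNFSF15 had 7.58 and 6.87 with LPS, against 7.05 and 6.75 without, a difference of 0.32 with overlap. On 243400_x_at LTBR had 6.62 and 6.96 with LPS, against 6.56 and 6.56 without, a difference of 0.23 without overlap. On 202688_at TNFSF10 lay lower without overlap, by -0.08.

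LTB, the membrane-bound lymphotoxin beta, gave opposite answers on its 2 probe sets. On the brighter one, 1559754_at, LTB had 6.54 and 6.82 with LPS, against 6.65 and 6.87 without, a difference of -0.09. On 207339_s_at LTB had 6.72 and 6.86 with LPS, against 6.44 and 6.54 without, a difference of 0.30 ± 0.12 (SE) without overlap and with an unadjusted p of 0.0462 (limma over every probe set, adjusted p = 1). The probe sets are close in level, both are dim, and averaging them gave 0.11. The sign of the difference for LTB therefore rests on which of them is taken.

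**Figure D3:**
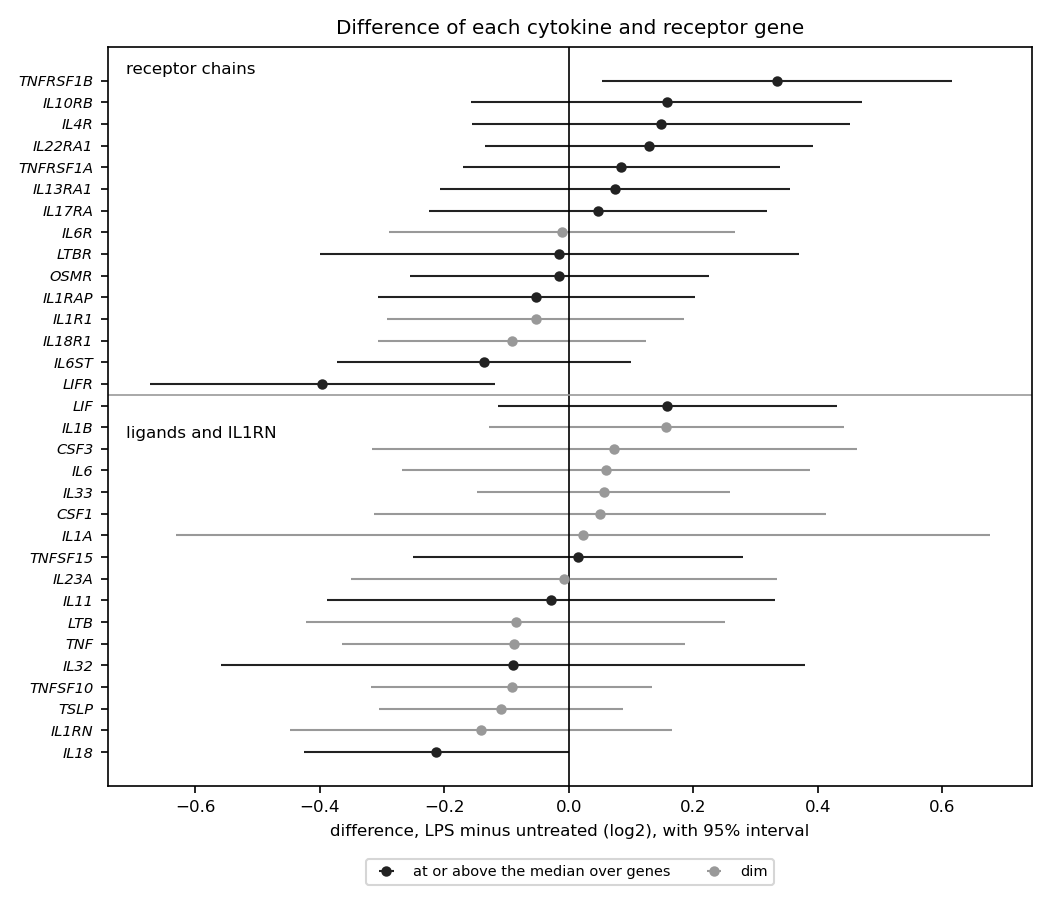
Difference between LPS-treated and untreated cells (log2) for each member with its 95% interval from limma, receptor chains above and ligands below, dim genes in grey. LIFR at -0.40 and TNFRSF1B at 0.33 are the members whose intervals lie clear of 0, and the IL18 interval ends at 0.

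In the IL-1 family the ligand gene IL18, which encodes a cytokine that epithelial cells store as an inactive precursor, was bright. It had 11.49 and 11.37 with LPS, against 11.69 and 11.59 without. The LPS arrays lay lower without overlap, and the difference was -0.20 for replicate 1 and -0.22 for replicate 2. The ratio was 0.86 (95% interval 0.74 to 1.00) at an unadjusted p of 0.0501 (limma, adjusted p = 1). Its receptor chain gene IL18R1 was dim, at 4.35 and 4.34 with LPS, against 4.37 and 4.50 without.

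The IL-1 ligands were dim. IL1B, the secreted IL-1 that inflammasomes activate, had 7.19 and 7.03 with LPS, against 6.91 and 6.99 without. Both LPS arrays lay above both untreated ones by as little as 0.03. Its dimmer probe set, 39402_at, differed by 0.11, also without overlap. IL1A, the alarmin IL-1 of epithelial cells, had 6.79 and 5.97 with LPS, against 6.65 and 6.07 without. Its arrays followed their number and not the treatment, and its interval of -0.63 to 0.68 was the widest of the members. IL1RN, the antagonist that blocks the IL-1 receptor, had 6.61 and 6.86 with LPS, against 6.82 and 6.93 without, and its 5 probe sets differed by -0.14 to 0.07. IL33, an alarmin of barrier tissues, stood at 3.55 and 3.72 with LPS, against 3.61 and 3.55 without, at the bottom of the range.

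Of the IL-1 receptor chains, the ligand-binding IL1R1 was dim and the accessory chain IL1RAP was not. IL1R1 had 5.28 and 5.16 with LPS, against 5.30 and 5.25 without. IL1RAP had 8.49 and 8.50 with LPS, against 8.57 and 8.53 without on its brighter probe set, a difference of -0.05. Its dimmer probe set, 210233_at, had 6.85 and 6.66 with LPS, against 7.27 and 7.05 without, a difference of -0.40 ± 0.14 (SE) at an unadjusted p of 0.0252 (limma over every probe set, adjusted p = 1). IL1RAP is known to give membrane and soluble forms, and which form each probe set reads was not tested.

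Receptors for cytokines of T cells and innate lymphoid cells were all at or above the median over genes, and none passed the test. On the brightest probe set all 5 had a difference above 0, as had 56.5% of all genes and 50.7% of genes at or above the median. IL4R, the chain shared by IL-4 and IL-13 receptors, had 8.60 and 8.63 with LPS, against 8.33 and 8.61 without. Its partner IL13RA1 had 9.49 and 9.27 with LPS, against 9.25 and 9.35 without, while its other 3 probe sets lay below 0 and the mean over its probe sets was -0.0175. IL10RB, shared by the receptors for IL-10, IL-22 and type III interferon, had 9.11 and 8.79 with LPS, against 8.81 and 8.77 without. In these genes a single array made the difference, untreated replicate 1 for IL4R and LPS replicate 1 for IL10RB and IL13RA1.

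IL22RA1, the epithelial chain that pairs with IL10RB to receive IL-22, had 7.68 and 7.69 with LPS, against 7.58 and 7.54 without. The arrays did not overlap, with a ratio of 1.09 (95% interval 0.91 to 1.31). IL17RA, the common chain of IL-17 receptors, had 8.33 and 8.47 with LPS, against 8.33 and 8.38 without. Its 4 probe sets all differed by 0.02 to 0.16.

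None of the remaining ligands passed the test. IL32, a cytokine gene of human epithelial and lymphoid cells with no counterpart in the mouse, was bright, at 10.25 and 10.90 with LPS, against 10.54 and 10.78 without. The LPS arrays of IL32 lay on either side of the untreated ones, and its difference was -0.30 for replicate 1 and 0.12 for replicate 2. The macrophage growth factor gene CSF1 had 6.94 and 7.36 with LPS, against 7.10 and 7.10 without, and the neutrophil growth factor gene CSF3 had 6.63 and 7.11, against 6.80 and 6.79. IL23A, the p19 subunit of IL-23, had 6.64 and 6.96 with LPS, against 6.72 and 6.90 without. TSLP, an epithelial cytokine of allergic inflammation, stood at 3.54 and 3.53 with LPS, against 3.57 and 3.72 without. Apart from TSLP, these groups overlapped on the brightest probe set. On 211839_s_at CSF1 had 5.99 and 6.18 with LPS, against 5.80 and 5.92 without, a difference of 0.22 without overlap. On 210557_x_at CSF1 differed by 0.09 without overlap, and on 207082_at by -0.05 with overlap.

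**Figure D4:**
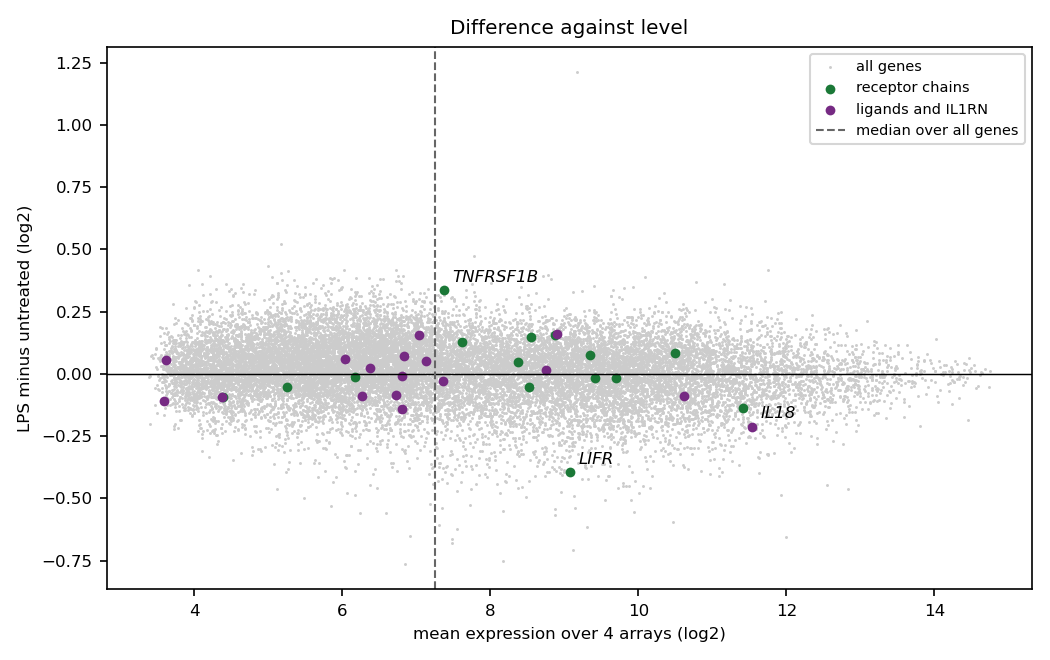
Difference between LPS-treated and untreated cells (log2) against mean expression over 4 arrays (log2) for all 19775 genes in grey, with receptor chains in green and ligands in purple. Most members lie inside the cloud of all genes, and LIFR, TNFRSF1B and IL18 are named.

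Probe sets of the same member often disagreed in sign. Several probe sets measured 18 members, and their differences had both signs in 9, lay all below 0 in 5 and all above 0 in 4. Of all 74 probe sets of the members, 0 passed the adjusted threshold (limma over every probe set) and 5 had an unadjusted p under 0.05. The share over all 41091 named probe sets was not counted, so this number is not read as high or low. These 5 were 225575_at and 205876_at of LIFR, 210233_at of IL1RAP, 207339_s_at of LTB and 203508_at of TNFRSF1B.

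Promoter sequences show a feature that the choice of members did not use. RefSeq entries (GRCh38.p14, from 250 bases before to 50 after a transcription start) were found for 28 of the 33 genes. At least 1 listed promoter had an observed to expected CpG ratio of 0.6 or more in 12 of 14 receptor genes and in 3 of 14 ligand genes, against 51.9% of 27305 genes. The NF-κB decamer consensus, searched on both strands, occurred in a promoter of 9 of 27 measured members with an entry, IL6, LTB, IL32, TSLP, IL23A, IL4R, IL22RA1, IL6ST and IL18R1, and in 13.3% of all genes. These 9 genes differed by -0.14 to 0.15 (median -0.09), and 0 of them passed the adjusted test or an unadjusted p of 0.05. A match describes these letters only and is not evidence of binding.

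The 3 promoters below are shown because they carry the decamer in ligand genes that did not pass the test, IL6, LTB, with its opposite probe sets, and IL32. Each runs 5′ to 3′ on the gene's own strand, with decamer matches in capitals. The match began at position -73 in IL6, at -87 and 37 in LTB, and at -99 in IL32, where a match on the other strand from -98 overlaps it, counting the start base as 0.
IL6 promoter, chr7:22726950-22727249 (+ strand, GRCh38.p14): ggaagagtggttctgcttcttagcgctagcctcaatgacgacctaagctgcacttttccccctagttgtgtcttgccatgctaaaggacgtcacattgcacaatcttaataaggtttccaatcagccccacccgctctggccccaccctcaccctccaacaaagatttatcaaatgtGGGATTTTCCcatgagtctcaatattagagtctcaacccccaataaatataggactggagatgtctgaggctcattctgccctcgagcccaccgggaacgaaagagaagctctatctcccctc
LTB promoter, chr6:31582375-31582674 (- strand, GRCh38.p14): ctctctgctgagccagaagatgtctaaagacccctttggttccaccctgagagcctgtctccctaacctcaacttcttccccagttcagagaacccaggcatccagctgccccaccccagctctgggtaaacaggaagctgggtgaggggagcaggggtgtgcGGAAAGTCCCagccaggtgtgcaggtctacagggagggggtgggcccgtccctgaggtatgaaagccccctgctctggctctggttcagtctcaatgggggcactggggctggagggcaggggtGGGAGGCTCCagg
IL32 promoter, chr16:3065153-3065452 (+ strand, GRCh38.p14): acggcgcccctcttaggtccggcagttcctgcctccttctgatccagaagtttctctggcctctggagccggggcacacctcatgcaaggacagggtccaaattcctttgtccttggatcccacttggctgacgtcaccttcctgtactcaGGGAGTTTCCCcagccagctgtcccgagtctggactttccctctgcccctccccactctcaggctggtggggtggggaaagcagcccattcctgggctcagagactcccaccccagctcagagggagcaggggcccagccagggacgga

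Genes that surround these cytokines were counted from lists drawn up by role. Partner receptor chains and decoys had 0 of 25 genes past the adjusted threshold in either direction (limma, adjusted p = 1 for each) and a median difference of 0.05, beside 0.017 over all genes. IL20RA, a chain of the IL-20 receptor, was dim at 7.12 and 6.93 with LPS, against 7.31 and 7.35 without, at an unadjusted p of 0.0397, IL22RA2, the soluble IL-22 decoy, which was dim, differed by -0.19, and TNFRSF10B, a TRAIL death receptor, by 0.14. The list held dim genes in 16 of 25 cases.

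JAK, STAT and SOCS genes had 0 of 21 measured genes past the threshold and a median of 0.014. SOCS2, a feedback inhibitor of growth hormone and cytokine signalling, was at 12.28 and 12.26 with LPS, against 12.65 and 12.46 without, a difference of -0.28 ± 0.09 (SE) without overlap. STAT3, the main transcription factor downstream of gp130, differed by 0.26 ± 0.12, with 0.47 for replicate 1 and 0.06 for replicate 2, and SOCS4 by -0.18. SOCS2 had an unadjusted p of 0.0141 and did not pass adjustment (limma, adjusted p = 1).

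The adaptors and kinases of IL-1, IL-17 and TNF receptor signalling had 0 of 20 measured genes past the threshold and a median of 0.03. CHUK, the kinase IKKα, differed by -0.20 and TAB1, a TAK1 partner, by 0.17. IRAK2, an IL-1 receptor kinase, was dim and differed by 0.23 with overlapping arrays, at -0.05 for replicate 1 and 0.51 for replicate 2. Cytokine processing and release had 0 of 17 genes past the threshold, and its median lay at 0 to 2 decimals. RHBDF2, which escorts the TNF-shedding protease ADAM17, differed by 0.27, the dim gasdermin gene GSDMB by -0.19 and the proprotein convertase gene FURIN by 0.20. Cytokine-induced target genes had 0 of 21 measured genes past the threshold and a median of 0.014. PTGS2, the inducible prostaglandin synthase, was at 8.71 and 8.78 with LPS, against 9.17 and 9.11 without, at an unadjusted p of 0.00710, IER3, an early stress-response gene, differed by 0.18 and LCN2, a siderophore-binding lipocalin, by 0.23.

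**Figure D5:**
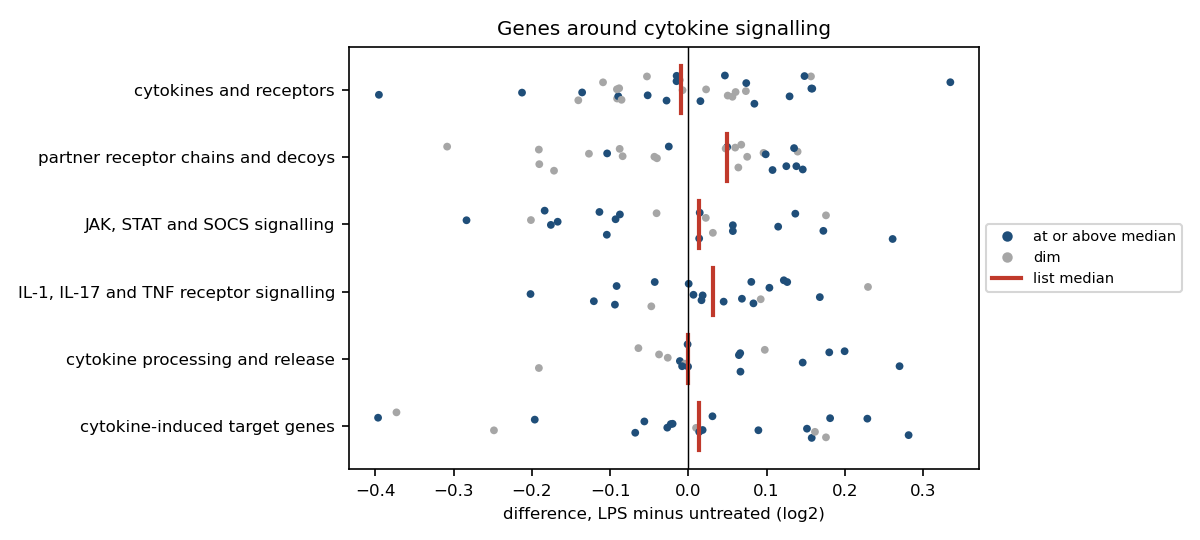
Differences between LPS-treated and untreated cells (log2) for the members and for 5 lists of genes around cytokine signalling, each point 1 gene (dim genes in grey) and each red bar a list median. The points of each list lie on either side of 0, and the medians of the 5 lists and of the members run from -0.009 to 0.05.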

How the data were processed

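The data were 4 one-colour Affymetrix arrays, 2 per group. Values deposited by the authors were on a log2 scale and covered 54675 probe sets, with MAS5 and RMA both listed in the submitters' processing notes, where neither has a role, version or setting. Minima of 3.19 to 3.28 and medians of 6.312 to 6.365 over the arrays are in the range of log2 values, which were used as deposited. If RMA made them, differences of dim probe sets are compressed. Detection calls were not used here, and the number of arrays limits the precision.

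Probe sets were named through the platform annotation: 41091 had 1 symbol, 1801 had several and 11721 had none, and 62 control probe sets were left out. Gene numbers matched the current gene table for 41037, with 0 symbols updated. The probe set with the highest mean stood for each of 19775 genes.

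The test of LPS minus untreated came from limma 3.58.1 (R 4.3.3), two-sided, with lmFit, then eBayes with its variance prior following expression level, and without covariates. P-values were adjusted by the Benjamini-Hochberg method across the genes, at a threshold of 0.05, and the code was tested on simulated data. Lists were described by counts and medians. The alternatives varied the scaling (quantile), the low-level filter (median expression), the choice of probe sets (their mean, none of the cross-matching _x_at and _s_at kinds, or each tested separately), the variance trend and the replicate block, or left out each array in turn. Each list named the 3 genes with the smallest unadjusted p. The members and lists were chosen with earlier results of these data known. Figures were drawn with matplotlib 3.10.9.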

Additional observations from a re-analysis of the deposited data

How the results depend on the processing

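No member passed the adjusted test under any alternative, and the smallest adjusted p of a member was 0.500 (limma, LIFR). Over all genes, 2 were called higher and 14 lower without LPS replicate 2, and leaving out an array gave 0 to 2 higher and 0 to 14 lower in all. Members lower without overlap numbered 8 with quantile normalization and 8 with the mean of probe sets, against 5 of 32 in the main test. Among genes at or above median expression the number was 3 of 17 members, because that filter leaves out the dim IL18R1 and TSLP. Leaving out 1 array, which makes separation easier, gave 7 to 13 members higher without overlap and 8 to 16 lower. The share of all genes without overlap was not counted under these alternatives, so these member counts are not read as high or low. The median difference of the members ran from -0.073 (without LPS replicate 2) to 0.03 (without untreated replicate 2) when an array was left out.

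Of 302 member differences under alternatives, 268 kept their sign and 34 turned, in 18 members, while 14 members never turned. The variance trend, the replicate block and the median filter leave a difference as it is, so those entries could not turn. The same holds for members with 1 probe set where probe sets were averaged. The count that kept their sign therefore overstates how stable the signs are. LIFR ran from -0.50 to -0.29, TNFRSF1B from 0.25 to 0.42 and IL18 from -0.27 to -0.15. With the mean of probe sets the difference turned to 0.073 for IL11, -0.0175 for IL13RA1, 0.0267 for IL1R1, 0.0257 for IL23A, 0.11 for LTB and 0.0524 for LTBR. Without _x_at and _s_at probe sets IL11 was at 0.17, and with quantile normalization IL1A was at -0.00088. The cause was not tested. With 1 array left out, the range was -0.16 to 0.26 for CSF1, -0.17 to 0.31 for CSF3, -0.0025 to 0.32 for IL10RB, -0.21 to 0.15 for IL11, -0.037 to 0.19 for IL13RA1, -0.024 to 0.12 for IL17RA, -0.39 to 0.43 for IL1A, -0.11 to 0.0028 for IL1R1, -0.17 to 0.15 for IL23A, -0.42 to 0.24 for IL32, -0.028 to 0.14 for IL33, -0.12 to 0.24 for IL6, -0.10 to 0.080 for IL6R, -0.22 to 0.053 for LTB, -0.25 to 0.22 for LTBR, -0.035 to 0.0048 for OSMR, -0.027 to 0.20 for TNFRSF1A and -0.045 to 0.076 for TNFSF15.

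Whether replicate numbers pair the arrays is not given by the labels. Deviations from the group means correlated at r = 0.44 between arrays with the same number, across genes, which are not independent replicates. With the replicate block 0 genes passed, and 1487 of 19775 genes had an unadjusted p under 0.05 (limma). Among the members 3 of 32 did, LIFR (0.0027), TNFRSF1B (0.0128) and IL18 (0.0132). The share of the members is near that of all genes. The block left the count of called members at 0.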
